A study of Mus musculus with 28 samples.

Results

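Chemokines are small secreted proteins that direct the movement of leukocytes, and their messenger RNAs, with those of the G protein-coupled receptors that read them, were described in the liver of mice that overexpress SIRT6. The genes were taken by name: 52 of 49585 features in the deposited count table carried a symbol of the Ccl, Cxcl, Ccr or Cxcr series, 48 of them had a read in at least 1 library (32 ligands and 16 receptors), and 44 (28 ligands and 16 receptors) were abundant enough to be tested. Ccl21b, Ccl26, Ccl27b and Cxcl15 had no read, and Ccl1, Ccl20, Cxcl3 and Cxcl17 had between 3 and 13 reads over all libraries and were not tested. Livers came from C57BL/6JOlaHsd mice aged 5 to 7 months, taken after a short daytime fast, in 4 groups of 7: WT males, SIRT6-tg males, WT females and SIRT6-tg females, the WT mice being littermates without the transgene. The transgene is a whole-body one and the SIRT6-tg mice stem from 1 line, so that line and transgene cannot be told apart. The comparison asks what extra SIRT6, a chromatin-bound NAD-dependent deacylase, does to liver transcripts in each sex.

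The Sirt6 transcript was checked first against the labels. Its normalized count ran from 44.8 to 85.9 (median 73.3) in male WT and from 5263 to 9516 (median 7189) in male SIRT6-tg livers, and from 47.9 to 165 (median 67.2) in female WT and from 434 to 1334 (median 785) in female SIRT6-tg livers. Reads of the transgene and of the endogenous gene were counted together, and the rise was larger in males (log2 difference of the rises 3.29 ± 0.35, adjusted p = 7e-06), so sex and the amount of Sirt6 RNA cannot be told apart where the SIRT6-tg effect is compared between males and females. Libraries held 18758863 to 35393069 counts. A normalized count is a read count rescaled to the mean effective library size, 26562738 counts. Values are given as the lowest, median and highest of 7 mice, and fold changes as log2 values with standard errors, with p-values from edgeR adjusted over 21583 genes.

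As background, inflammatory chemokines are induced in macrophages, hepatocytes and endothelium by cytokines such as interferons and tumour necrosis factor, whereas homeostatic chemokines are made constantly and place lymphocytes and stem cells in tissues. A ligand usually serves several receptors and a receptor several ligands. In the liver, CCR2 and its ligands are known for drawing monocytes from the blood, CXCR3 with its ligands for drawing T and NK cells, and CXCL16 for holding CXCR6-bearing lymphocytes in the sinusoids.

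In males, 27 of the 44 tested genes were lower in SIRT6-tg than in WT livers at an adjusted p below 0.05 and none was higher. Over all genes, 11.0% were lower and 9.68% higher. With other scalings the split over all genes moved, to 11.6% lower and 6.46% higher with RLE, 12.3% and 4.36% with the upper quartile and 18.9% and 0.973% on library size alone, while 27, 27 and 29 members were lower and 0 higher. The median log2 fold change of the 44 was -1.53, against 0.06 over all tested genes. The 27 comprised 17 of 28 ligands and 10 of 16 receptors. For 13 of them the 7 SIRT6-tg values all lay under the 7 WT values, a separation in that direction found for 4.37% of all genes. Among these were Ccl3, Ccl4, Ccl5, Ccl8, Ccl22, Cxcl2, Cxcl9, Cxcl10, Ccr1, Ccr2, Ccr7 and Cxcr4. The largest differences belonged to Ccl8, Ccl4, Ccl3 and Ccl5, at log2 fold changes of -5.38, -4.71, -4.19 and -3.85. For the count of 0 higher genes, edgeR gave 1 (Ccl27a) at an unadjusted p below 0.05 and DESeq2 gave 0 at its adjusted threshold. In whole liver, fewer cells of a type and less RNA per cell cannot be told apart.

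**Figure D1:**
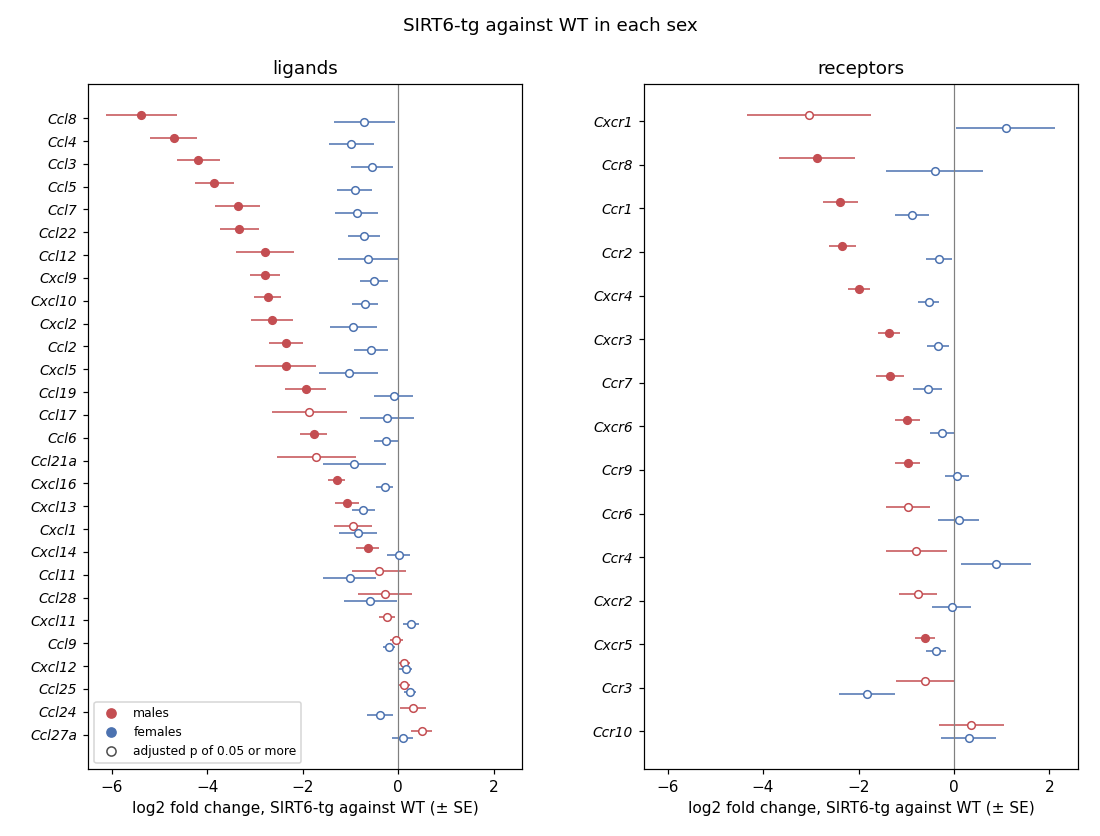
Log2 fold change of SIRT6-tg against WT (x axis, bars: SE) for tested ligands and receptors, in males (red) and females (blue); filled points have an adjusted p below 0.05. Filled points are found in males alone, all left of 0, with Ccl8 at -5.38 furthest out.

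To set genes side by side, normalized counts were divided by exon length in kb and by the mean effective library size in units of 1000000. On this scale the most abundant member in male WT liver was Cxcl9 at 41.9 ± 20.1 (mean ± SD of 7 mice), followed by Cxcl12 at 37.2 ± 7.75, Ccl5 at 26.4 ± 14.6 and Ccl9 at 23.99 ± 3.43, and each differed from its neighbour in this order by less than the larger SD of the pair. In male SIRT6-tg liver Cxcl12 led at 40.4 ± 5.64, Ccl9 followed at 23.4 ± 2.83, and Cxcl9 stood at 6.05 ± 1.39. Summed over ligands, the level per length was 141 to 297 (median 199) in male WT and 86.3 to 111 (median 92.8) in male SIRT6-tg mice, so the groups did not overlap. Cxcl9 made up 19.4% of the male WT sum, and Cxcl12 41.6% of the male SIRT6-tg sum. In females the ligand sum was 121 to 168 (median 146) in WT and 108 to 160.3 (median 127) in SIRT6-tg mice, which overlapped. The summed receptors were far lower, with a median of 9.33 in male WT, 3.52 in male SIRT6-tg, 5.61 in female WT and 4.46 in female SIRT6-tg mice.

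**Figure D2:**
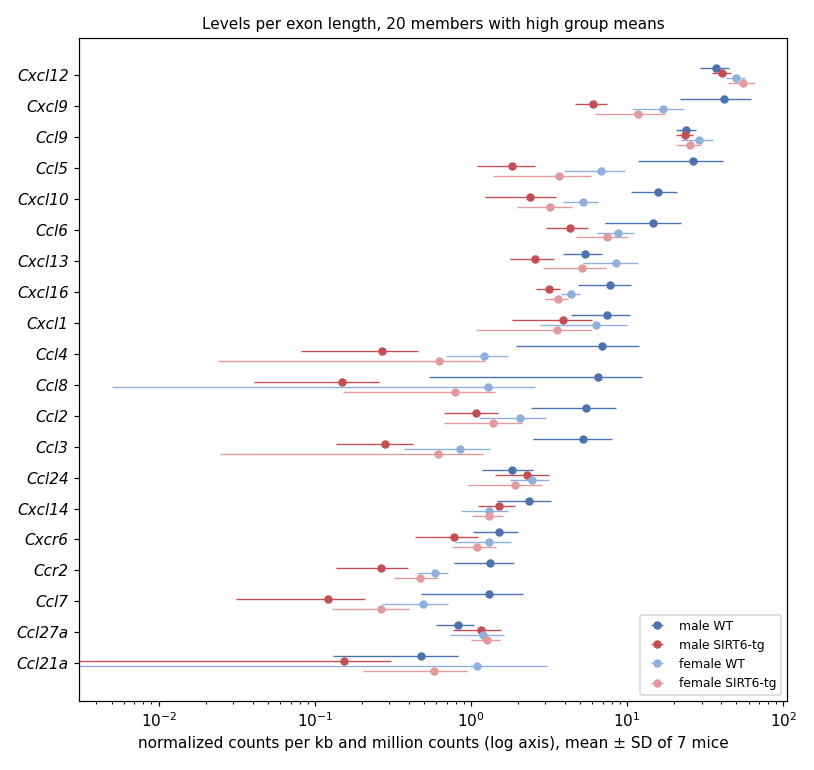
Mean level per exon length (x axis, log scale; bars: SD of 7 mice, running off the axis where they pass 0) of 20 tested members with high group means, in the 4 groups. Cxcl12 and Ccl9 overlap between male WT and male SIRT6-tg mice, whereas Cxcl9 and Ccl5 reach 41.9 ± 20.1 and 26.4 ± 14.6 in male WT mice and 6.05 ± 1.39 and 1.82 ± 0.728 in male SIRT6-tg mice.

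Of the 3 ligands of CXCR3, all neighbours within 44.1 kb of chromosome 5 and known as interferon-inducible, Cxcl9 and Cxcl10 fell in SIRT6-tg males and Cxcl11 did not pass the test. Cxcl9, which draws activated T cells, ran from 1133 to 5753 (median 3346) in male WT and from 334 to 687 (median 489) in male SIRT6-tg mice. Every SIRT6-tg male was below every WT male, and the log2 fold change was -2.79 ± 0.31 (adjusted p = 2.5e-07), a 6.93-fold difference. Female medians lay between these, with values from 777 to 2144 (median 1231) in WT and from 572 to 1925 (median 805) in SIRT6-tg mice. Cxcl10 ran from 537 to 1399 (median 948) in male WT and from 69.8 to 259.8 (median 119) in male SIRT6-tg mice, again without overlap, at a log2 fold change of -2.74 ± 0.28 (adjusted p = 5.9e-08). In females Cxcl10 ran from 175 to 426 (median 327) in WT and from 116 to 326 (median 164) in SIRT6-tg mice, which overlapped. Cxcl11 ran from 61.8 to 122 (median 83.2) in male WT and from 50.8 to 121 (median 66.6) in male SIRT6-tg mice, with a log2 fold change of -0.23 whose 95% interval was -0.57 to 0.10. Without composition scaling, on library size alone, Cxcl11 was called lower as well (-0.53, adjusted p = 0.020). C57BL/6 mice are known to carry a Cxcl11 allele that makes no working protein, and 41.7% of its exon bases are shared with an antisense gene, Gm2673, whose reads could not be separated by this library kit.

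The upstream sequences of Cxcl9 and Cxcl10 are shown because these neighbours fell by like amounts from different starts. Both are the 250 bases before the RefSeq start (GRCm38.p6, minus strand, written 5′ to 3′), Cxcl9 at chr5:92328080-92328329 and Cxcl10 at chr5:92348890-92349139. Capitals mark matches, on either strand, to 3 letter patterns: TTCNNNGAA (GAS, the interferon gamma-activated site), GAAA and GAAA with 2 bases between (ISRE, of interferon regulatory factors) and GGG and TTCC with 3 bases between (a κB pattern, of NF-κB).
Cxcl9: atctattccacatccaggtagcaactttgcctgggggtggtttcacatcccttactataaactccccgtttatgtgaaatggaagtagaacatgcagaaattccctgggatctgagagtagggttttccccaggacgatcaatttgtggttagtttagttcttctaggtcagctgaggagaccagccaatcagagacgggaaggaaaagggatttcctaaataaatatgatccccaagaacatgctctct
Cxcl10: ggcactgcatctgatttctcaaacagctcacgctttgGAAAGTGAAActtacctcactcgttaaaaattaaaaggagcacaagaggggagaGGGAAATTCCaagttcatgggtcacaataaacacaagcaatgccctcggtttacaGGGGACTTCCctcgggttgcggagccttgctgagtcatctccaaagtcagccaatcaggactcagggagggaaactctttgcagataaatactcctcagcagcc
The Cxcl10 window held 1 ISRE match (first base at -213, counting back from the start) and 2 κB matches (-159 and -104), and the Cxcl9 window held no match to these letters. Over 32851 windows of this length, 7.02% held GAS, 2.98% ISRE and 4.65% the κB pattern. Windows were listed for 31 tested members, 35 windows in all. Members lower in SIRT6-tg males with no listed window included Ccl2, Ccl4, Ccl5, Ccl7, Cxcl5, Cxcl16, Ccr7 and Cxcr5. A member was counted if any of its windows held a match, whereas the shares above are per window. Among the 18 that were lower in SIRT6-tg males, 1 held GAS (Cxcl14), 3 ISRE (Ccl19, Cxcl10, Cxcl14) and 2 κB (Cxcl2, Cxcl10), and among the other 13, 2 held GAS (Ccl17, Ccr6), 0 ISRE and 4 κB (Ccl9, Ccr3, Ccr6, Cxcl1).

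The CC ligands Ccl3, Ccl4 and Ccl5, from macrophages, NK and T cells, were all lower in SIRT6-tg males, with no overlap between the groups. Ccl5 ran from 231 to 1315 (median 649) in male WT and from 28.4 to 82.2 (median 45.1) in male SIRT6-tg livers, with a log2 fold change of -3.85 ± 0.41 (adjusted p = 1.2e-07). For Ccl3 the values were from 44.6 to 203 (median 98.0) and from 3.32 to 12.1 (median 5.46), a log2 fold change of -4.19 ± 0.45. Ccl4 went from 45.3 to 303 (median 99.6) in WT and from 1.84 to 9.86 (median 3.98) in SIRT6-tg males, a log2 fold change of -4.71 ± 0.50, and the adjusted p of each was at most 1.2e-07. For Ccl3 and Ccl4 the male WT values lay above those of all 3 other groups, whereas for Ccl5 the lowest male WT value was under the highest female WT one. Female WT values of Ccl5 ran from 51.4 to 256 (median 187) and female SIRT6-tg values from 40.9 to 220 (median 77.4). In female SIRT6-tg mice replicate 1 was the highest for Ccl3, Ccl4 and Ccl5, at 38.5, 33.7 and 220.

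**Figure D3:**
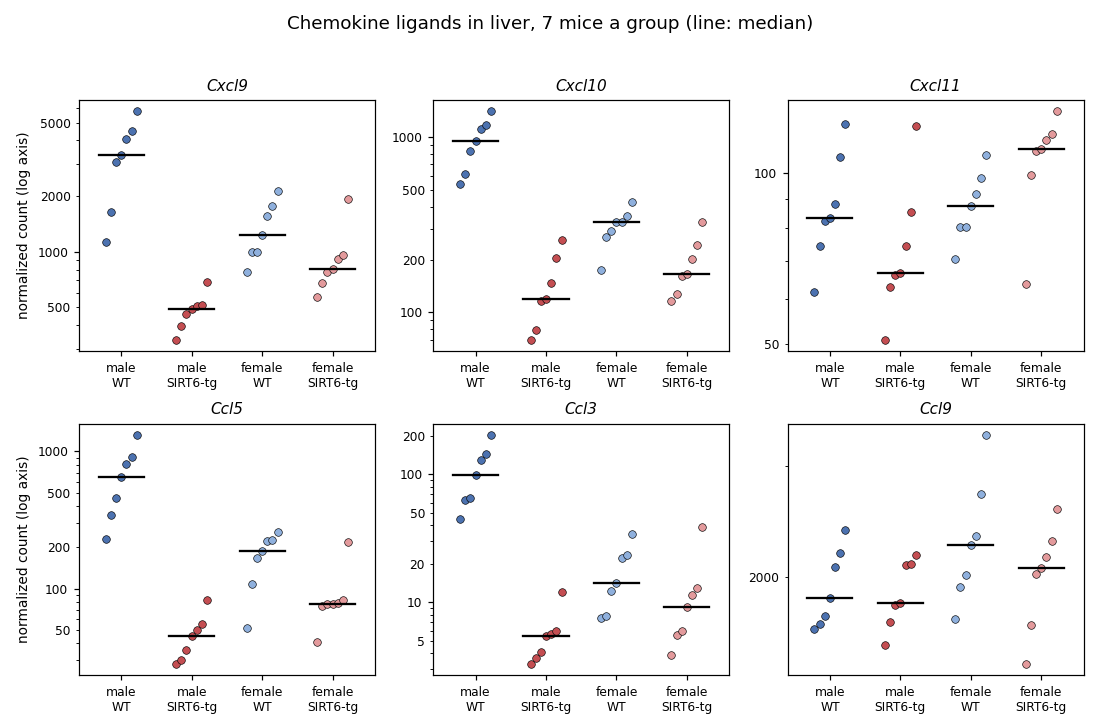
Normalized counts (log axis) of 6 ligands in single mice, 7 a group, with a line at the median. Male SIRT6-tg mice lie wholly under male WT mice for Cxcl9, Cxcl10, Ccl5 and Ccl3, and the groups overlap for Cxcl11 and Ccl9.

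The 3 ligands of CCR2, which calls monocytes out of marrow and blood, were lower in SIRT6-tg males as well. Ccl2 ran from 53.3 to 327 (median 164) in male WT and from 20.2 to 56.4 (median 27.3) in male SIRT6-tg mice, so the ranges met, and its log2 fold change was -2.36 ± 0.36 (adjusted p = 1.4e-05). Ccl7 ran from 4.0 to 60.5 (median 31.0) and from 0 to 5.46 (median 2.21) (log2 fold change -3.36 ± 0.47), and Ccl12, a mouse gene of this group with few reads, from 2.67 to 13.4 (median 5.92) and from 0 to 2.82 (median 1.09) (log2 fold change -2.80 ± 0.61). Ccl8, which in the mouse acts through CCR8, had the largest difference of all members: from 16.0 to 254 (median 60.5) in male WT and from 0 to 4.42 (median 1.99) in male SIRT6-tg mice, at a log2 fold change of -5.38 ± 0.75 (adjusted p = 5.5e-06). The highest male WT value of Ccl8 was that of replicate 6, and the SIRT6-tg values were all below the lowest WT value. The other CCR8 ligand, Ccl1, had 13 reads in all, 8 of them in male WT and 1 in male SIRT6-tg mice.

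Ccl6 and Ccl9, CCR1 ligands of myeloid cells encoded side by side on chromosome 11, differed from each other. Ccl6 ran from 245 to 1183 (median 623) in male WT and from 156 to 320.1 (median 174) in male SIRT6-tg mice (log2 fold change -1.77 ± 0.28, adjusted p = 2.8e-05). Ccl9 ran from 1658 to 2376 (median 1856) and from 1564 to 2172 (median 1819), with a log2 fold change of -0.04 and a 95% interval of -0.29 to 0.22. Only part of the Ccl6 range overlapped, whereas the Ccl9 ranges lay over each other. Whether the effect on Ccl6 differed from that on Ccl9 was not tested.

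Of the CCR4 ligands, which are made by dendritic cells and draw Th2 and regulatory T cells, Ccl22 fell without overlap, from 18.7 to 37.2 (median 30.3) in male WT and from 1.03 to 5.48 (median 2.18) in male SIRT6-tg mice (log2 fold change -3.33 ± 0.40, adjusted p = 4.5e-07). Ccl17, its neighbour, had 16 reads in male WT and 3 in male SIRT6-tg libraries. Relative to effective library sizes the ratio was 0.229, with a 95% interval from counting of 0.0428 to 0.801. Ccl17 did not pass the test (adjusted p = 0.094, or 0.030 without male SIRT6-tg replicate 5). Ccl24 and Ccl11, the eosinophil-drawing ligands grouped here under CCR3, gave no call. Ccl24 ran from 31.3 to 92.9 (median 63.7) in male WT and from 51.4 to 127 (median 72.7) in male SIRT6-tg mice, and Ccl11 from 0 to 5.32 (median 3.91) and from 0 to 5.63 (median 2.06). Their log2 fold changes were 0.31 (95% interval -0.21 to 0.83) and -0.41 (-1.51 to 0.70).

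Among the neutrophil-drawing ligands of CXCR2, Cxcl2 and Cxcl5 were lower in SIRT6-tg males and Cxcl1 did not pass. Cxcl2 ran from 7.97 to 39.2 (median 25.7) in male WT and from 0 to 7.04 (median 4.12) in male SIRT6-tg mice, without overlap (log2 fold change -2.65 ± 0.44, adjusted p = 3.7e-05). Cxcl5 ran from 3.29 to 16.8 (median 9.39) and from 0 to 4.12 (median 1.41), with ranges that met (log2 fold change -2.36 ± 0.64, adjusted p = 0.0076). Cxcl1, the most abundant of them, ran from 192 to 606 (median 347) and from 73.7 to 381 (median 180.2) and had a log2 fold change of -0.94 ± 0.40 (adjusted p = 0.099). Under DESeq2, library size alone, the male groups fitted alone or without male SIRT6-tg replicate 6, Cxcl1 passed, at adjusted p between 0.028 and 0.049. Cxcl3 had 3 reads, all in male WT livers.

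Upstream of Cxcl1 and Cxcl2, which lie 10.8 kb apart, the same patterns were looked up, because both are ligands of CXCR2. Whether the effect on Cxcl2 differed from that on Cxcl1 was not tested. The windows are chr5:90890995-90891244 and chr5:90903649-90903898, both on the plus strand of GRCm38.p6, with matches in capitals as above.
Cxcl1: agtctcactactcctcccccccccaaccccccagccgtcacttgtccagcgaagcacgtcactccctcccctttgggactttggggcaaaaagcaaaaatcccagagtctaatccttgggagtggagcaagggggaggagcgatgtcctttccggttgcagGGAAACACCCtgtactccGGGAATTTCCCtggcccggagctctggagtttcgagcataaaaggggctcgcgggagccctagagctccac
Cxcl2: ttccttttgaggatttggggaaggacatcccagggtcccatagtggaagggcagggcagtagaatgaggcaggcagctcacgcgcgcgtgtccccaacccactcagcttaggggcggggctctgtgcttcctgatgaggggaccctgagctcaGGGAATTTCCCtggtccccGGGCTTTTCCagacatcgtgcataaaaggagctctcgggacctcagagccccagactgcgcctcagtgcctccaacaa
The letters GGGAATTTCC occurred in both windows, first base at -71 in Cxcl1 and -97 in Cxcl2, each time overlapped 1 base on by a match on the other strand. Each window had another κB match, at -89 in Cxcl1 and -78 in Cxcl2.

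The lymphoid ligands, which position B and T cells and dendritic cells, were lower or did not pass. Cxcl13, the CXCR5 ligand, ran from 115 to 245 (median 152) in male WT and from 47.4 to 118 (median 71.9) in male SIRT6-tg mice (log2 fold change -1.07 ± 0.25, adjusted p = 0.0026). Ccl19, a CCR7 ligand, ran from 5.33 to 31.3 (median 14.2) and from 1.99 to 7.74 (median 3.29) (log2 fold change -1.94 ± 0.43, adjusted p = 0.0014). Both pairs of ranges met at their edges. Ccl21a, the other CCR7 ligand, ran from 3.95 to 24.7 (median 8.86) and from 0 to 9.86 (median 3.28) in males and did not pass (adjusted p = 0.15), and its highest value of all, 129, was that of female WT replicate 1. Without that library Ccl21a was called lower in SIRT6-tg males (log2 fold change -1.72, adjusted p = 0.021). Ccl21a and Ccl19 have near-identical copies elsewhere in the mouse genome, as has Ccl27a, so counts of uniquely mapped reads for these 3 are uncertain.

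Ligands made mainly by tissue cells included 4 that were not called. Cxcl12, which endothelium and stroma make to retain CXCR4-bearing cells, ran from 5561 to 10940 (median 7698) in male WT and from 7028 to 10380 (median 8902) in male SIRT6-tg livers, with a log2 fold change of 0.12 (95% interval -0.13 to 0.37). Ccl25, the CCR9 ligand, had a log2 fold change of 0.13, Ccl27a of 0.50 and Ccl28, both known as CCR10 ligands, of -0.27, none of which passed. Without male WT replicate 6, Ccl27a was called higher (0.60, adjusted p = 0.049). On library size alone the values of Cxcl12 and Ccl25 were -0.15 and -0.16 and did not pass. Of these 6 ligands, 2 were called lower. Cxcl16, the CXCR6 ligand, ran from 312 to 962 (median 587) in WT and from 218 to 324 (median 236) in SIRT6-tg males (log2 fold change -1.29 ± 0.18, adjusted p = 2.5e-06), and 18.3% of its exon bases are shared with Zmynd15 on the other strand. Cxcl14 ran from 69.9 to 182 (median 126) and from 47.8 to 104 (median 67.6) (log2 fold change -0.64 ± 0.23, adjusted p = 0.0496), a call that ended without male WT replicate 3, 4, 6 or 7 or male SIRT6-tg replicate 2, 3, 4, 6 or 7 (adjusted p from 0.068 to 0.13), without any of 6 female libraries (0.050 to 0.054), with no filter on low counts (0.061) and with the replicate block (0.097).

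Several CC receptors were lower in SIRT6-tg males. Ccr2, the monocyte receptor, ran from 129.8 to 362 (median 239.5) in male WT and from 20.2 to 82.2 (median 43.7) in male SIRT6-tg mice (log2 fold change -2.34 ± 0.28, adjusted p = 5.2e-07). Every SIRT6-tg male lay below every WT male, as also for Ccr1, from 9.33 to 45.9 (median 14.1) against from 1.84 to 5.48 (median 3.98) (log2 fold change -2.38 ± 0.36), and for Ccr7, the receptor that leads dendritic cells and naive T cells to lymph nodes, from 33.3 to 68.3 (median 54.9) against from 4.37 to 29.6 (median 25.9) (log2 fold change -1.34 ± 0.29). Ccr9, a gut-homing receptor, fell by less (-0.97 ± 0.27, adjusted p = 0.0086), and 18.8% of its exon bases overlap an antisense gene. Ccr8 was called from 24 reads in male WT and 2 in male SIRT6-tg libraries (adjusted p = 0.0095). Relative to effective library sizes this was a ratio of 0.102, with a 95% interval of 0.0117 to 0.411 from counting error. Ccr3, Ccr4, Ccr6 and Ccr10 had means of at most 5.15 normalized counts in males and gave no call, with log2 fold changes of -0.60, -0.78, -0.96 and 0.36.

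Among CXC receptors, Cxcr3, Cxcr4, Cxcr5 and Cxcr6 were lower and Cxcr1 and Cxcr2, the neutrophil receptors, were not called. Cxcr4, the CXCL12 receptor of most leukocytes, ran from 36 to 66.1 (median 47.7) in male WT and from 5.63 to 19.9 (median 10.3) in male SIRT6-tg mice, without overlap (log2 fold change -1.99 ± 0.23, adjusted p = 1.9e-07). Cxcr3 ran from 18.8 to 54.9 (median 42.5) and from 11.9 to 22.1 (median 15.3) (log2 fold change -1.36 ± 0.24, adjusted p = 7.6e-05), and Cxcr6, which NKT and resident T cells carry, from 49.3 to 122 (median 72.5) and from 17.5 to 70.4 (median 41.8) (log2 fold change -0.98 ± 0.26). In these 2 genes the ranges overlapped. Cxcr5, of B cells and follicular helper T cells, changed least of those called (-0.61 ± 0.21, adjusted p = 0.035). The Cxcr5 call ended without male WT replicate 2, 3, 4 or 6 or male SIRT6-tg replicate 1, 4, 5 or 6 (adjusted p from 0.050 to 0.070). It also ended with no filter on low counts (0.063). Cxcr2 ran from 4.69 to 25.7 (median 15.1) in male WT and from 4.12 to 21.9 (median 5.46) in male SIRT6-tg mice (log2 fold change -0.75). The highest of the latter was replicate 6, without which Cxcr2 was called lower (-1.27, adjusted p = 0.022). Cxcr1 had 7 reads in male WT and 0 in male SIRT6-tg libraries, too few for a fold.

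**Figure D4:**
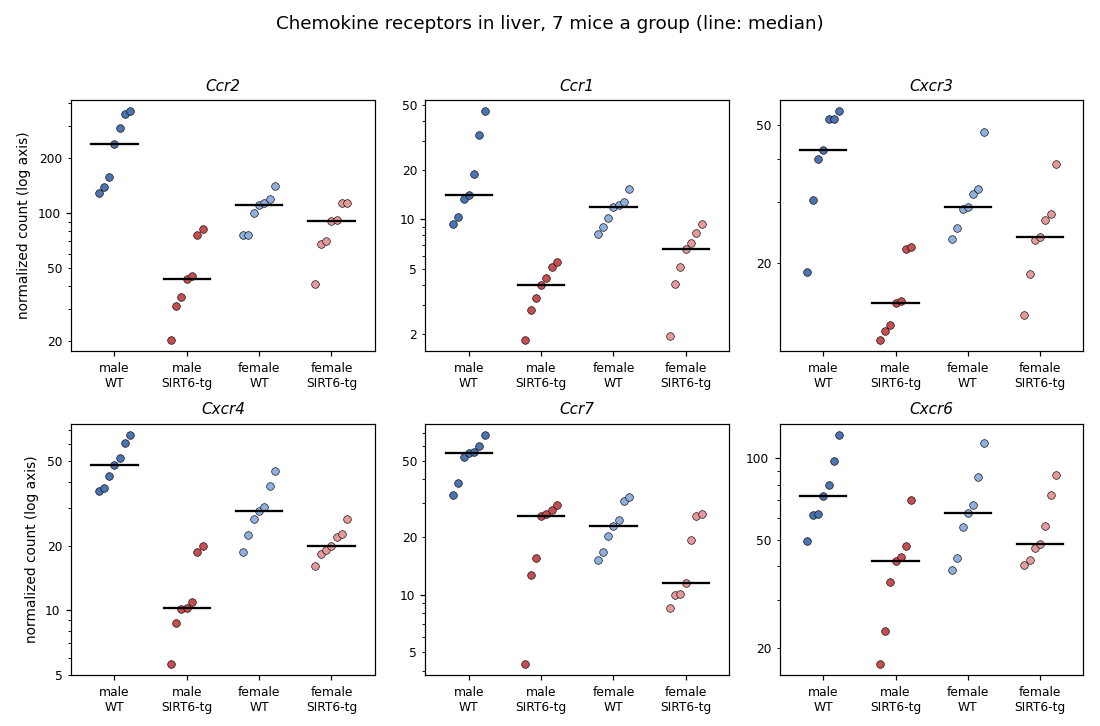
Normalized counts (log axis) of 6 receptors in single mice, 7 a group, with a line at the median. Male SIRT6-tg mice lie wholly under male WT mice for Ccr2, Ccr1, Cxcr4 and Ccr7, and overlap them for Cxcr3 and Cxcr6.

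Set by axis, a receptor and all its tested ligands named here were lower in males for Ccr2 (Ccl2, Ccl7 and Ccl12), Ccr8 (Ccl8), Cxcr5 (Cxcl13) and Cxcr6 (Cxcl16). For Ccr1, Cxcr3 and Ccr7 the receptor and part of the ligands were lower, with Ccl9, Cxcl11 and Ccl21a, respectively, not called. In 2 axes the receptor was lower and the ligand was not called, namely Cxcr4 with Cxcl12 and Ccr9 with Ccl25. In 2 axes a ligand was lower and the receptor was not called, namely Cxcl2 and Cxcl5 with Cxcr2 and Ccl22 with Ccr4. Of the genes grouped here under CCR3, neither Ccl11 and Ccl24 nor Ccr3 was called. Ligands were grouped by receptor as named above, and those of other groups that can also serve CCR3 were not counted here.

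Many of these genes lie in clusters, taken here as runs with gaps under 1 Mb. The 5 tested genes of Ccl2, Ccl7, Ccl11, Ccl12 and Ccl8 (with untested Ccl1, 270.1 kb of chromosome 11) held 4 that were lower in SIRT6-tg males (11.0% of all genes), all but Ccl11. The next cluster, Ccl5, Ccl9, Ccl6, Ccl3 and Ccl4 (139 kb of the same chromosome), held 4 of 5, all but Ccl9. Thus each of these clusters, and that of Cxcl9, Cxcl10 and Cxcl11, had 1 tested gene that was not called. These uncalled neighbours ranged from low (Ccl11) to among the most abundant members (Ccl9). Other runs had other shares of tested genes lower. Cxcl5, Cxcl1 and Cxcl2 held 2 of 3, and Ccl27a, Ccl19 and Ccl21a held 1 of 3. Ccl22 and Ccl17 held 1 of 2, and Cxcr1 and Cxcr2 held 0 of 2.

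In females no member was called in either direction (edgeR), against 0.0232% of all genes higher and 0.00463% lower. Unadjusted p was below 0.05 for 9 genes, all lower in SIRT6-tg mice (Ccl4, Ccl5, Ccl22, Cxcl1, Cxcl10, Cxcl13, Ccr1, Ccr3, Cxcr4), and for 0 higher, and DESeq2 called 0. Of the 44 log2 fold changes, 34 were below 0, with a median of -0.39 against 0.0026 over all genes, and no pair of ranges was apart (0.0417% of all genes in each direction). The smallest adjusted p was that of Ccr3, 0.44, with from 1.09 to 15.4 (median 5.09) in WT and from 0.848 to 3.61 (median 1.11) in SIRT6-tg females. For Ccl5 the female log2 fold change was -0.91 (95% interval -1.64 to -0.18), for Cxcl9 -0.52 (-1.09 to 0.06) and for Ccr2 -0.32 (-0.85 to 0.22).

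The test of the difference itself, the SIRT6-tg effect in males minus that in females, was negative at adjusted p below 0.05 for 14 members, against 3.84% of all genes, and positive for 0, against 1.20% (edgeR, 0 also at unadjusted p below 0.05 and by DESeq2). All 14 were also lower in males, and among them were Ccl2, Ccl3, Ccl4, Ccl5, Ccl6, Ccl7, Ccl8, Ccl22, Cxcl9, Cxcl10, Cxcl16, Ccr2 and Cxcr4. The largest were Ccl8 at -4.67 ± 1.03 (adjusted p = 0.0068), Ccl4 at -3.73 ± 0.71 (adjusted p = 0.0021) and Ccl3 at -3.65 ± 0.64 (adjusted p = 0.0011). The Ccl2 call (-1.78) ended with no filter on low counts (adjusted p = 0.062). It also ended without any 1 of 8 libraries (adjusted p from 0.051 to 0.064). These were male WT replicates 6 and 7, male SIRT6-tg 3 and 5, female WT 2 and 5 and female SIRT6-tg 1 and 2. The Ccl7 call ended without female SIRT6-tg replicate 7 (0.053). On library size alone 0.120% of all genes were positive and 8.51% negative, and with upper-quartile scaling 0.542% and 4.48%, with 19 and 15 members negative and 0 positive. For the other 13 of the 27 the effect was not shown to differ between the sexes. Cxcr5 and Cxcl13 were the nearest to equal, at differences of -0.23 ± 0.29 (95% interval -0.81 to 0.34) and -0.35 ± 0.35 (-1.03 to 0.34).

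Males and females were also compared within each genotype. In WT mice 16 members were higher in males (6.66% of all genes) and 1, Cxcl12, was lower (5.71% of all genes). On library size alone the shares of all genes became 16.9% higher and 2.57% lower, with 20 members higher and 0 lower. Among the 16 were Ccl2, Ccl3, Ccl4, Ccl5, Ccl7, Ccl8, Cxcl2, Cxcl9, Cxcl10, Cxcl14, Cxcl16, Ccr2, Ccr7, Ccr8 and Cxcr4. DESeq2 gave Ccr8 no adjusted p. Some cell markers differed in the same comparison, against 6.66% of all genes higher and 5.71% lower, and their part was not tested. Of T cell markers 8 of 8 were higher in male than in female WT mice (median log2 fold change 1.28). The counts were 3 of 6 for dendritic cells, 2 of 5 for NK cells and 1 of 6 each for Kupffer cells and for monocytes and macrophages. B cell and neutrophil markers gave 0 of 5 each (edgeR, 0 also at unadjusted p below 0.05 and by DESeq2). Hepatocyte, stellate cell and bile duct markers gave 0 higher and 1 lower each (edgeR). Ccl3, at 2.59 ± 0.39 (adjusted p = 2.7e-05), and Ccl4, at 2.51 ± 0.41 (adjusted p = 7.8e-05), differed most, and for these, Cxcl10 and Ccr7 the 7 male values all exceeded the 7 female ones, a separation found for 1.33% of all genes. Cxcl12 ran from 5561 to 10940 (median 7698) in male WT and from 8641 to 13010 (median 11110) in female WT mice (log2 fold change -0.42 ± 0.13, adjusted p = 0.03), and this call ended on library size alone (-0.23, adjusted p = 0.26).

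In SIRT6-tg mice 0 members were higher in males (12.9% of all genes; 0 also at unadjusted p below 0.05 and by DESeq2) and 11 were lower (10.2% of all genes). The shares of all genes became 9.09% higher and 14.1% lower with upper-quartile scaling and 8.79% and 13.7% on library size alone, with 12 and 14 members lower and 0 higher. Among these were Ccl6, Ccl17, Ccl22, Cxcl9, Cxcl11, Cxcl12, Cxcl13, Ccr2, Ccr9 and Cxcr4. Cxcl9, Ccr2 and Cxcr4 were higher in males than females among WT mice and lower among SIRT6-tg mice. For Ccr2 the log2 difference was 1.18 ± 0.27 (adjusted p = 0.0028) in WT and -0.84 ± 0.29 (adjusted p = 0.032) in SIRT6-tg mice, and for Cxcl9 1.31 ± 0.30 (adjusted p = 0.0032) and -0.97 ± 0.30 (adjusted p = 0.019). The SIRT6-tg call of Ccr2 ended with no filter on low counts (adjusted p = 0.053) and without male SIRT6-tg replicate 1, 3, 4 or 5 or female SIRT6-tg replicate 2 or 7 (0.052 to 0.076), that of Cxcl9 without female SIRT6-tg replicate 1 (0.065), and that of Cxcr4 without male or female SIRT6-tg replicate 7 (0.0503 and 0.054). The WT call of Cxcr4 ended without male WT replicate 3 (0.057). After the sparse Ccl17, Ccl22 had the largest of the called differences in SIRT6-tg mice, from 1.03 to 5.48 (median 2.18) in males and from 2.21 to 18.6 (median 12.3) in females (-2.02 ± 0.44, adjusted p = 0.0012). Cxcl12 was lower in males in both genotypes. The count of 11 fell to 6 without male SIRT6-tg replicate 1, 3 or 4 or female SIRT6-tg replicate 7, and to 7 without female SIRT6-tg replicate 4.

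**Figure D5:**
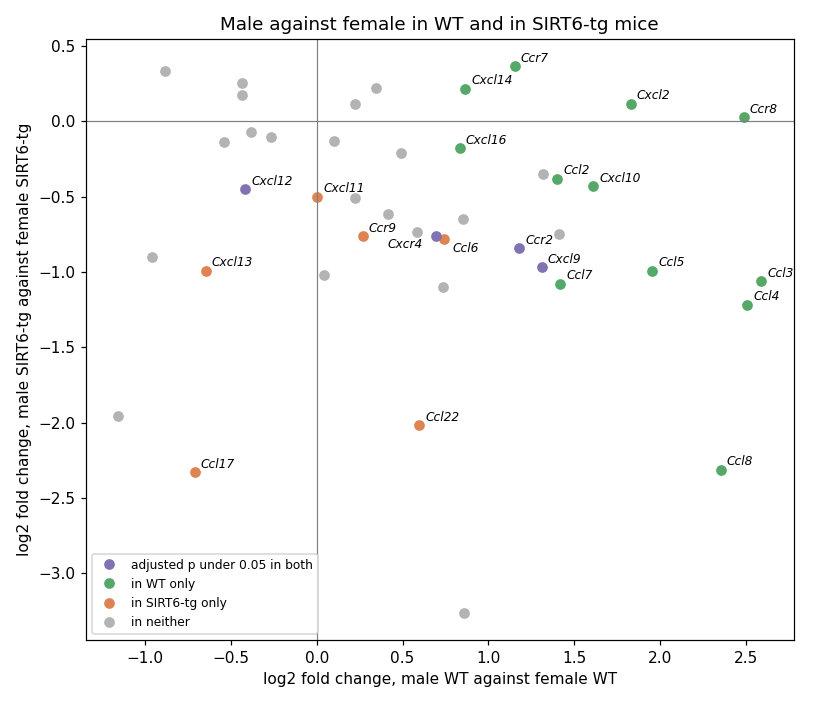
Log2 fold change of males against females in WT (x axis) and in SIRT6-tg mice (y axis) for tested members, coloured by where the adjusted p was below 0.05. The points called in WT alone lie right of 0, those called in SIRT6-tg mice alone lie below 0, and Cxcl9, Ccr2 and Cxcr4 lie right of and below 0, called in both, while Cxcl12 lies left of and below 0.

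Genes that work with this family but carry other names were counted in the same way. Of 12 related ligands and receptors, 7 were lower in SIRT6-tg males (11.0% of all genes) and 0 higher (9.68% of all genes; edgeR, 0 also at unadjusted p below 0.05 and by DESeq2). The lower ones were Cx3cl1 and its receptor Cx3cr1, Xcl1 and its receptor Xcr1, the CXCL12 scavenger Ackr3, the atypical receptor Ccrl2 and the chemerin receptor Cmklr1. Cx3cr1, of patrolling monocytes, ran from 30.7 to 109 (median 66.1) in male WT and from 9.18 to 25.4 (median 14.4) in male SIRT6-tg mice (log2 fold change -2.24 ± 0.25, adjusted p = 1.6e-07). Of 23 genes that carry or regulate the signal, 12 were lower (11.0% of all genes), 0 higher (9.68% of all genes) and 11 not called in SIRT6-tg males. Log2 fold changes were above 0 for 6 of the 23, with 0 higher also at unadjusted p below 0.05 and by DESeq2. Over the 23 the log2 fold changes ran from -2.1 (Rgs1) to 0.22 (Gnb2), with a median of -0.65. The G protein subunits Gnai2, Gnai3, Gnb1 and Gnb2 had values from -0.18 to 0.22 and were not called. Dock2, Rac2, Vav1 and Pik3r5, known from leukocytes, fell by 1.72, 1.59, 1.55 and 2.06 on the log2 scale. The part of cell numbers in these values was not tested. In females 0 of the 12 and 0 of the 23 were called by edgeR or DESeq2, and 1 and 2 had an unadjusted p below 0.05.

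Markers of the cells that carry or make these molecules were counted beside them, against 11.0% of all genes lower and 9.68% higher in SIRT6-tg males, and their part in the results was not tested. All 8 T cell markers, 6 of 6 Kupffer cell markers and 6 of 6 monocyte and macrophage markers were lower in SIRT6-tg males, with 4 of 6 for dendritic cells, 3 of 5 for NK cells and 3 of 5 for B cells, and none of these was at 0 in all libraries. T cell markers summed to 387 to 1094 normalized counts in male WT, 126 to 197 in male SIRT6-tg, 140.3 to 417 in female WT and 146 to 326 in female SIRT6-tg mice. Kupffer cell markers summed to 7860 to 26150 in male WT, 6759 to 11450 in male SIRT6-tg, 8657 to 18550 in female WT and 6606 to 16960 in female SIRT6-tg mice. Monocyte and macrophage markers summed to 3985 to 12390, 3215 to 5559, 4942 to 9763 and 4146 to 9276 in the same order. Neutrophil markers gave 0 calls of 5 tested (edgeR, 1 at unadjusted p below 0.05), bile duct markers likewise 0 of 5 with 1 unadjusted (DESeq2 gave 0 for both). Of stellate cell markers 4 of 5 were lower, of sinusoidal endothelium 1 of 5, and 2 of 6 hepatocyte markers were higher. The 6 hepatocyte markers summed to 2389000 to 3324000 in male WT and 2993000 to 4211000 in male SIRT6-tg mice. In females they summed to 3676000 to 4826000 in WT and 3017000 to 4672000 in SIRT6-tg mice.

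Single livers stood out. Of the 27 genes lower in SIRT6-tg males, male WT replicate 6 gave the highest WT value for 16 and male WT replicate 5 the lowest for 16. Male WT replicate 3 held fat and pancreas transcripts, 68.5 normalized counts of Adipoq and 35.9 of Ctrb1, where the median of the group was 0 for both. The count of 27 became 25 without replicate 3, 25 without replicate 6 and 27 without replicate 5 of the male WT group.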

How the data were processed

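Liver RNA of 28 mice, 7 a group, was made into libraries with a kit that does not mark strand and sequenced single-end. The authors aligned reads to mm10 with STAR 2.5.0a, kept uniquely mapped reads and counted them per Gencode gene with HTSeq; the strand setting is not given in the sources used here. They deposited raw read counts per gene and library, the unit used here. Totals per library were 18758863 to 35393069 and a count of 0 allows up to 3 reads in a library. Counting intervals (95%, exact) cover counting error only.

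Symbols came from a name table matched by Ensembl identifier (49326 of 49585 features), and members were all symbols of the pattern Ccl, Cxcl, Ccr or Cxcr plus a number and at most 1 letter. The members and gene lists were chosen with earlier results of these data known. Genes with a mean count of at least 0.5 after scaling by DESeq2 size factors were tested (21583). All 28 libraries were fitted together by group in edgeR 4.0.16 (R 4.3.3; quasi-likelihood, robust, TMM scaling), and p-values were adjusted by Benjamini-Hochberg over all genes tested, with a threshold of 0.05. Standard errors were derived from the fold change and its F statistic. 1 member of the pattern enters the counts and sums but is not reported here by itself. Of the others, those called in any of the 5 comparisons were named, those whose groups did not overlap, and their partner ligands or receptors, were given by range over mice, and uncalled ones by fold change or level. Alternatives were RLE and upper-quartile scaling, library size alone, 2 other filters, DESeq2 1.42.0, the compared groups alone, the replicate number as a block, and each library left out in turn. Nothing in the labels says that mice of a group came from separate litters or cages. Gene positions and exon overlaps are from Gencode (GRCm38), and upstream sequences from RefSeq (GRCm38.p6).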

Additional observations from a re-analysis of the deposited data

Results flagged for a closer look

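Each tested member was examined in each group for a mouse far from the other 6. The gap to the next value over the whole range was set against Dixon's 95% critical value. Chance passes it in about 1 group in 20 for normally distributed values. Normalized counts were taken without logs here, so that rate may not hold. Of 176 groups of values, 20 passed, each by its highest value. Female SIRT6-tg replicate 1 was the highest for 7 genes, with normalized counts of 38.5 for Ccl3, 33.7 for Ccl4, 220 for Ccl5, 625 for Ccl6, 138 for Ccl24, 1925 for Cxcl9 and 301 for Cxcl13. Male WT replicate 6 was the highest for Ccl8 (254) and Ccl4 (303). Male SIRT6-tg replicate 6 was the highest for Ccl3 (12.1) and Cxcr2 (21.9), replicate 2 for Ccl19 (7.74) and replicate 3 for Ccr4 (2.75). Female WT replicate 1 stood out for Ccl21a (129, with the next mouse at 9.98), replicate 4 for Ccr10 (9.98) and Cxcr3 (47.7), and replicate 6 for Cxcr5 (50.9). The remaining ones were low counts, Cxcr1 in male WT replicate 5 (4.0) and female SIRT6-tg replicate 6 (5.12) and Ccr8 in female SIRT6-tg replicate 5 (2.02).

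In 14 genes, 13 of them given here, the SIRT6-tg effect was not the same in males and females (edgeR interaction, adjusted p below 0.05), always more negative in males. On the log2 scale the male minus female difference was -4.67 for Ccl8, -3.73 for Ccl4, -3.65 for Ccl3, -2.94 for Ccl5, -2.61 for Ccl22, -2.50 for Ccl7, -2.28 for Cxcl9, -2.04 for Cxcl10, -2.02 for Ccr2, -1.78 for Ccl2, -1.53 for Ccl6, -1.46 for Cxcr4 and -1.01 for Cxcl16. Sirt6 RNA also differed between SIRT6-tg males and females, and the part of its amount in these differences was not tested.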

How the results depend on the processing

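The count of members lower in SIRT6-tg males, 27, was 23 to 29 under the 8 other settings and 25 to 28 with 1 library left out, and that of members higher was 0, or 1 (Ccl27a) without male WT replicate 6. In females both counts were 0 under all settings and omissions run. The difference between the sexes was more negative in males for 13 to 19 genes under other settings (main 14) and 13 to 16 with 1 library left out. In WT mice 15 to 20 genes were higher in males (14 to 19 with 1 left out, main 16), and 0 to 2 lower with 1 left out (main 1, Cxcl12); on library size alone and with the WT groups fitted alone 0 were lower. In SIRT6-tg mice 8 to 14 genes were lower in males (6 to 12 with 1 left out, main 11) and 0 higher. Counts of 0 higher for the sex difference and in SIRT6-tg males against females were 0 throughout.

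Library size alone moved the median log2 fold change of all genes in males from 0.06 to -0.22 and that of the sex difference from 0.03 to -0.25, and in WT males against females from -0.0031 to 0.19 and in SIRT6-tg ones from -0.04 to -0.14, with 0.973% of genes then called higher and 18.9% lower in males against 9.68% and 11.0%; RLE scaling gave 6.46% and 11.6%, and upper-quartile scaling 4.36% and 12.3%. The sign of uncalled values turned for Ccl25 (-0.16) and Cxcl12 (-0.15) on library size alone, for Ccl28 without male WT replicate 3 (0.062; -0.79 to 0.062 over omissions of 1 library), and for Ccl9 without male WT replicate 7 (0.022; -0.091 to 0.022 over omissions) or male SIRT6-tg replicate 5 (0.0059). Among males against females, calls ended without 1 library for Ccr8 (male WT replicate 4 or 6, female WT 5), Cxcr4 (male WT 3) and Cxcl12 (10 of 28 libraries) in WT mice, and in SIRT6-tg mice for Ccl6, Ccl17, Ccr2, Ccr9, Cxcl9, Cxcl11 and Cxcr4; with no filter on low counts those of Ccl6 (adjusted p = 0.075), Ccr2 (0.053) and Ccr9 (0.064) ended too. The cause was not tested.

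Equal replicate numbers in different groups were checked for pairing. Same-numbered libraries correlated, in their deviations from group means, at -0.283 to 0.271, and in no pair of groups did all 7 exceed 0.1, so the numbers are taken to be shared by name only. With the replicate number as a block 26 members were lower in SIRT6-tg males (Cxcl14 no longer, adjusted p = 0.097), 0 in females, 14 in the sex difference, and 16 higher and 1 lower in WT and 12 lower in SIRT6-tg males against females. Precision is limited by depth for Ccl1, Ccl17, Ccl20, Cxcl3, Cxcl17, Ccr4, Ccr8 and Cxcr1, each with at most 61 reads over 28 libraries.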
